A study of Mus musculus with 5 samples.

Results

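Acsf2, Rdh13, Mrpl42, Grsf1, Oxsm, Sdhaf4, Immp2l and Lars2 are nuclear genes whose proteins work in mitochondria. They were selected on the ratios described here, and chosen by name: in mouse embryonic stem cells, all 4 siRNA libraries lay far on one side of the single control library for each of them. The rule set no numerical threshold. The 8 genes are part of 12930 in the deposited table, where they stand in capitals as ACSF2, RDH13, MRPL42, GRSF1, OXSM, SDHAF4, IMMP2L and LARS2, and all 8 had a value in all 4 siRNA libraries, as did 12088 genes in all. Their distance from the control is therefore a description, and no test of it is given.

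The cells were mouse embryonic stem cells of the OG2 line, of a strain entered as (CBA/CaJxC57BL/6J) together with 129Sv/Jae (female mice). OG2 is the name of a reporter background in which GFP is driven by regulatory sequence of Pou5f1. All cells had 24 h in N2B27 medium with LIF, PD0325901 and CHIR99021, which holds the naive state, and then 36 h in a differentiation medium with bFGF, Activin A and knockout serum replacement. Transfection, at 50 nM siRNA with DharmaFECT 1, was done at the change of medium. The siDhx30 group (2 libraries) received siRNA against Dhx30, which encodes a helicase of mitochondrial RNA granules. The siTfam group (2 libraries) received siRNA against Tfam, whose protein packages mitochondrial DNA and starts its transcription. The NC group is 1 library labelled as negative control, and the labels do not say what it was transfected with. Nor do they say whether libraries of one group came from separate cultures, so the spread between them may be technical.

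Each deposited value is a log2 ratio of 1 siRNA library to what is read here as the NC library. Neither the denominator nor the direction is stated in the column headings. All 1574 values of the 842 genes that lack a value in at least 1 library were negative as deposited. That pattern is the one left when a gene needs enough reads in either library of a ratio and the ratio is NC over siRNA. The signs were turned round on that ground, so that values below are siRNA over NC, and with the deposited sign every higher gene would be lower and the reverse. The ratios carry neither read totals nor expression levels, and their depth is unknown. The NC library enters all 4 ratios: a difference that belongs to the NC library alone and one shared by both siRNA groups cannot be told apart.

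Mitochondria keep a small genome of their own and import nearly all of their proteins, which are made in the cytosol from nuclear genes. The imported proteins include the ribosome, tRNA synthetases and RNA-binding proteins that express that genome, and the enzymes, assembly factors and proteases of mitochondrial metabolism. Among the 8 genes, Lars2 (leucyl-tRNA synthetase), Mrpl42 (a protein of the large ribosomal subunit) and Grsf1 (an RNA-binding protein of mitochondrial RNA granules) belong to gene expression. Oxsm (the condensing enzyme of mitochondrial fatty acid synthesis), Acsf2 (an acyl-CoA synthetase, which activates fatty acids) and Rdh13 (a short-chain dehydrogenase active on retinoids) are metabolic enzymes. Sdhaf4 is an assembly factor of succinate dehydrogenase (complex II), and Immp2l is a catalytic subunit of the inner membrane peptidase, which trims imported proteins.

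All 8 matched GENCODE M21 protein-coding genes on GRCm38, the build named in the submitters' processing notes. Acsf2 (ENSMUSG00000076435.3) lies at chromosome 11, 94557102 to 94601871, minus strand. Rdh13 (ENSMUSG00000008435.15) lies at chromosome 7, 4424770 to 4445649, minus strand. Mrpl42 (ENSMUSG00000062981.5) lies at chromosome 10, 95480805 to 95501940, minus strand, and Grsf1 (ENSMUSG00000044221.14) at chromosome 5, 88659448 to 88676171, minus strand. Those 4 are the genes below NC, and the next 4 those above it. Oxsm (ENSMUSG00000021786.13) lies at chromosome 14, 16238652 to 16249808, minus strand, and Sdhaf4 (ENSMUSG00000026154.4) at chromosome 1, 23995939 to 24005656, minus strand. Immp2l (ENSMUSG00000056899.10) lies at chromosome 12, 41024090 to 41955588, plus strand, and Lars2 (ENSMUSG00000035202.8) at chromosome 9, 123366927 to 123462666, plus strand. Each is on a different chromosome. They differ widely in build: the longest coding transcript of Sdhaf4 has 3 exons and 683 bases, and that of Lars2 has 21 exons and 3894 bases. Immp2l spans 931499 bases for a coding transcript of 1147 bases, and 36 of 11859 measured genes with a GENCODE symbol span more.

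Several of these gene bodies hold other annotated genes or resemble them, which bears on whose reads were counted, since use of strand in the counting is not given in the sources used here. Oxsm shares 529 bases, 21 of them exonic in both, with the start of Ngly1 on the opposite strand. Sdhaf4 shares 152 bases, 111 of them exonic in both, with the opposite-strand model Gm26524. Chad lies inside Acsf2 and Lrrn3 inside Immp2l, both on the opposite strand and without shared exonic bases. Immp2l overlaps 10 genes, of which only the opposite-strand lincRNA Gm46348, without shared exonic bases, was measured. Ratios of Gm46348 were 0.11 and -0.53 for siDhx30 replicates 1 and 2, and -0.18 and -1.67 for those of siTfam. Rdh13 holds the microRNA model Gm24605 on the same strand, with 96 bases exonic in both. No gene overlaps Mrpl42, Grsf1 or Lars2. Acsf2 transcripts matched the processed pseudogene Gm5540 on chromosome 3 at 99.03% identity over 1848 bases, so reads of Acsf2 may be split with it or left uncounted, and its values are uncertain to that extent. Ratios of Gm5540 were -0.30 and 0.02 for siDhx30 replicates 1 and 2, and -1.83 and -1.48 for those of siTfam, while those of Acsf2, given below, were even over the libraries. Mrpl42 matched Gm6419 at 97.2% over 216 bases, and no other gene reached 97% identity over 150 bases with any of the 8.

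RefSeq start sites on GRCm38.p6 were found for 7 of the 8 genes, all but Rdh13, with 10 start sites in all. Promoter bases before the start site are shown for 2 genes below NC and 2 genes above NC, because these 4 include the largest distance on each side and the lowest GC content of the 10 (Mrpl42). They run 5′ to 3′ toward the gene and end at the base before the start. Capitals mark GGGCGG, the letters of an SP1 box, and CCAAT, on either strand. Neighbouring copies of the first can overlap by a base. For Oxsm, the start site shown is the one that lies back to back with the start of Ngly1.

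Acsf2 chr11:94601787-94602036 (minus strand): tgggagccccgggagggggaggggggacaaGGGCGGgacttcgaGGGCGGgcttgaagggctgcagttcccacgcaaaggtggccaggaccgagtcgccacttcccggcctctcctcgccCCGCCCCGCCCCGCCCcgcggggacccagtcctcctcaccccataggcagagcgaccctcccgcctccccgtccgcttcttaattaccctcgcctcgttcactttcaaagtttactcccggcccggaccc

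Mrpl42 chr10:95501950-95502199 (minus strand): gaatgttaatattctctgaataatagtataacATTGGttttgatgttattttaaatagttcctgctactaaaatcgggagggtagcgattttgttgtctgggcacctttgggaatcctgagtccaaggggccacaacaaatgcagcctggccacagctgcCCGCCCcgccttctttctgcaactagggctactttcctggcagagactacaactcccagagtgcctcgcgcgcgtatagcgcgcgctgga

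Oxsm chr14:16249177-16249426 (minus strand): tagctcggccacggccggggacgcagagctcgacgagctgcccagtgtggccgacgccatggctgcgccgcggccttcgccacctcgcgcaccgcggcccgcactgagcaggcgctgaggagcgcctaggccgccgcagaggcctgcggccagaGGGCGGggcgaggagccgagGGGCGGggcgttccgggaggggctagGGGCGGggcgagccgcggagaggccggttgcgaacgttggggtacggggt

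Sdhaf4 chr1:24005641-24005890 (minus strand): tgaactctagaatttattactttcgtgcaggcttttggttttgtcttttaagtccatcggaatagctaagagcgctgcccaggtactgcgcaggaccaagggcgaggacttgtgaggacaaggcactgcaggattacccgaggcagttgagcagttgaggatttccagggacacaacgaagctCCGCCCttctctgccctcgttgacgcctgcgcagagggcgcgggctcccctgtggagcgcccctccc

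The letters GGGCGG stood in 8 of the 10 promoters, and in at least 1 promoter of each of the 7 genes, whether above or below NC. Of 10823 promoters of measured genes of this length, 55.8% hold them. CCAAT stood in 3 of the 10, against 35.1%. The ETS letters CCGGAAG stood in 1 (Grsf1), against 13.6%. The NRF1 motif, the CRE letters TGACGTCA and the E-box letters CACGTG stood in none, against 7.85%, 2.58% and 8.27%. GC content ran from 49.2% in Mrpl42 to 78.0% at a Grsf1 start, and the median over the 10 was 62.6%, against 59.6% over measured genes. Neither GGGCGG nor CCAAT was found on one side of NC only.

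Below NC lay 4 of the genes. Acsf2 had log2 ratios of -3.05 and -2.87 in siDhx30 replicates 1 and 2 and of -2.79 and -3.08 in siTfam replicates 1 and 2. Its mean was -2.95, or 12.96% of the NC level, and each library stayed between 11.8% and 14.5%. Rdh13 had ratios of -2.54 and -2.66 in siDhx30 and of -2.63 and -2.87 in siTfam, a mean of -2.67 or 15.7% of NC. In both genes the siDhx30 and siTfam values interleaved, and no library came within 2.5 log2 units of NC.

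Mrpl42 and Grsf1, which serve mitochondrial translation and RNA handling, lay less far below NC. Mrpl42 had ratios of -1.67 and -2.06 in siDhx30 and of -1.69 and -1.86 in siTfam, a mean of -1.82 or 28.4% of NC. Grsf1 had ratios of -1.66 and -1.29 in siDhx30 and of -1.47 and -1.09 in siTfam, a mean of -1.38 or 38.4% of NC. The siTfam values of Mrpl42 fell between those of siDhx30, and the values of Grsf1 alternated between the siRNAs. The Grsf1 value of siTfam replicate 2, 46.9% of NC, was the closest to NC of any of the 32 values.

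Above NC lay the other 4. Sdhaf4 had log2 ratios of 2.18 and 2.30 in siDhx30 and of 3.33 and 2.31 in siTfam, a mean of 2.53 or 578% of NC. Of its values 3 sat within a narrow band, and siTfam replicate 1 stood apart from them at 1009% of NC. Oxsm had ratios of 2.48 and 2.30 in siDhx30 and of 1.86 and 2.40 in siTfam, a mean of 2.26 or 478% of NC. Here siTfam replicate 1 was the lowest library, the reverse of its place for Sdhaf4. The same library also held the highest ratios of the small structured RNAs Rn7sk (1.08, others -1.99 to 0.01) and Rpph1 (1.52, others -1.42 to -0.84), whose part in the Sdhaf4 and Oxsm values was not tested.

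Immp2l had ratios of 1.99 and 2.13 in siDhx30 and of 1.98 and 2.21 in siTfam, a mean of 2.08 or 422% of NC. Lars2 had ratios of 1.36 and 1.11 in siDhx30 and of 1.12 and 1.44 in siTfam, a mean of 1.26 or 239% of NC. For both genes the siDhx30 values fell inside the range of the siTfam values, or overlapped it. Lars2 is the one of the 4 that serves mitochondrial translation. These are bulk libraries, so a change in RNA per cell and a change in the share of cells that carry it cannot be told apart.

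**Figure D1:**
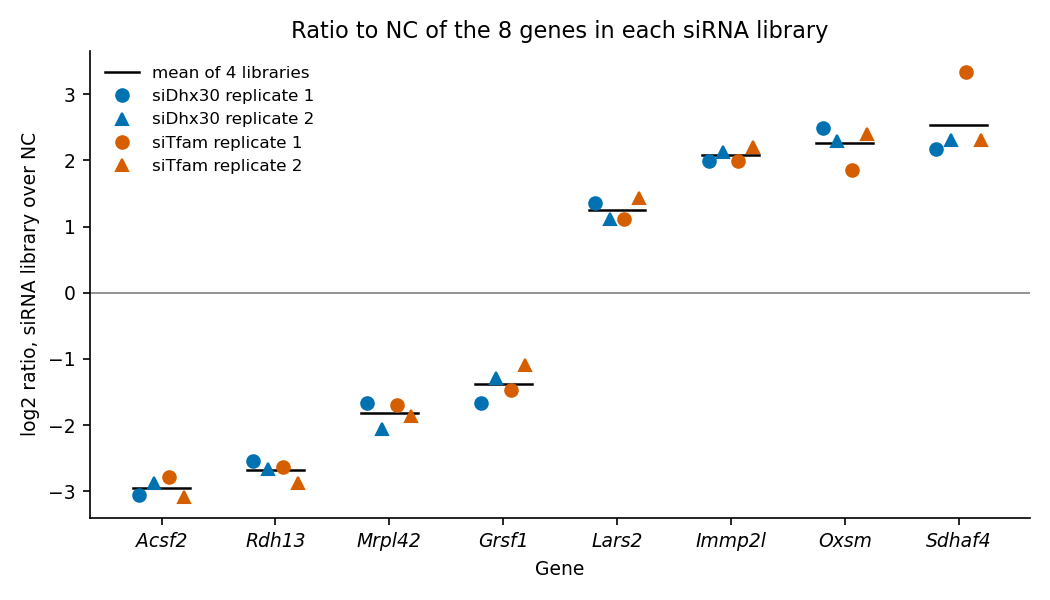
Log2 ratio of each siRNA library to NC (vertical axis) for the 8 genes, ordered by mean. Colours mark the siRNA, shapes the replicate, bars the mean of 4 libraries. The 4 points of a gene lie together on one side of 0, and Sdhaf4 has 1 point, siTfam replicate 1, at 3.33 against 2.18 to 2.31.

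Ordered by mean ratio, the genes ran Acsf2, Rdh13, Mrpl42, Grsf1, Lars2, Immp2l, Oxsm, Sdhaf4. The ranges of Acsf2 and Rdh13 overlapped, as did those of Immp2l, Oxsm and Sdhaf4 with one another. Within each of the 4 libraries, however, Acsf2 lay below Rdh13 and Sdhaf4 above Immp2l. The place of Oxsm relative to Immp2l and Sdhaf4 differed between libraries. These orders come from the ratios that chose the genes and were not tested. Mrpl42 (-2.06 to -1.67) and Grsf1 (-1.66 to -1.09) met without overlapping. Over all 12088 genes, 9 had a lower mean than Acsf2, 16 than Rdh13, 75 than Mrpl42 and 192 than Grsf1. On the other side, 9 genes had a higher mean than Sdhaf4, 21 than Oxsm, 31 than Immp2l and 141 than Lars2. Genes with all 4 libraries above NC by at least 1 on the log2 scale (2-fold) numbered 94, or 0.778% of those measured, and 102 genes, or 0.844%, lay below by as much. All 8 genes are among them, 4 on each side. They were chosen for lying far from NC, and nothing is read from that count. Of the 94 and the 102 genes, 35.1% and 62.7% were protein-coding, against 76.6% of all measured genes. All 8 genes are protein-coding. Among the 8, Grsf1 at 1.09 and Lars2 at 1.11 in their closest library came nearest to the distance of 1 from inside. Just outside it among the related genes listed below, Yars2, the mitochondrial tyrosyl-tRNA synthetase, had -0.98 in its closest library.

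The spread of the siRNA libraries around each mean comes from the same 4 ratios that chose the genes, a choice that favours libraries lying close together, and it is given as a description. The SD over the 4 ratios was 0.11 for Immp2l, 0.14 for Rdh13, 0.14 for Acsf2, 0.17 for Lars2 and 0.18 for Mrpl42, where the median over all genes was 0.21. It was 0.24 for Grsf1, 0.28 for Oxsm and 0.54 for Sdhaf4. Nothing is read from the place of these SDs among all genes. The 4 ratios share the NC library, whose own error moves them together and does not enter this SD.

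**Figure D2:**
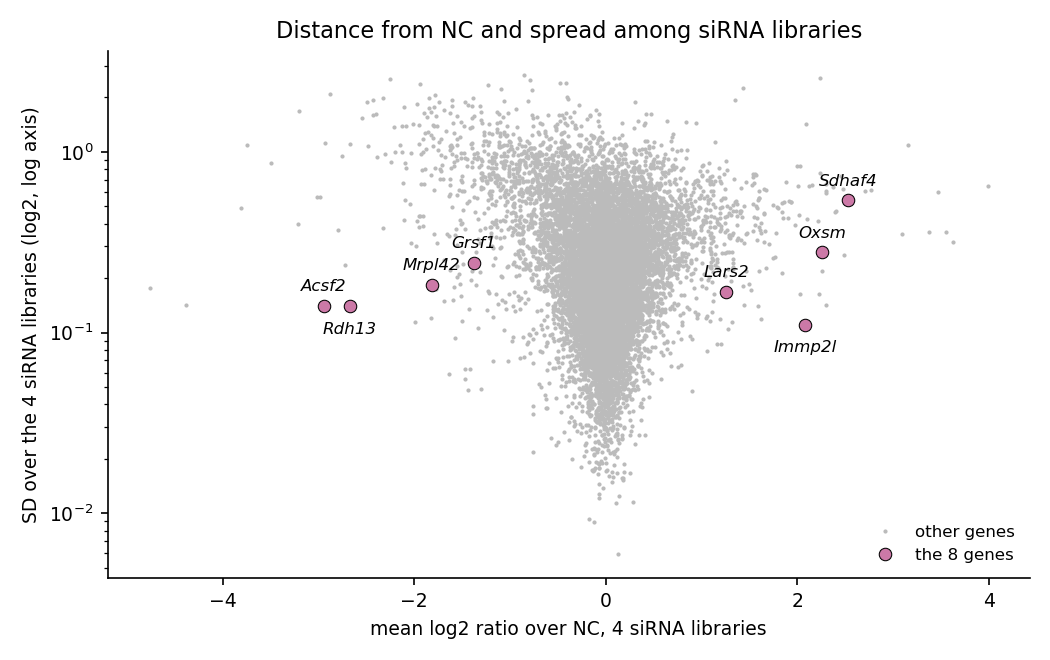
Mean log2 ratio over the 4 siRNA libraries (horizontal) against the SD over the same libraries (vertical, log axis), 1 grey point per gene and the 8 genes named. The SDs of the 8 genes run from 0.11 (Immp2l) to 0.54 (Sdhaf4).

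Each gene was set beside the other genes of its pathway or family, taken from lists by function. Over the 8 lists, 159 other genes were measured, with a median mean ratio of -0.01, beside -0.02 for all genes. None of the 159 had all 4 libraries past 1 on the log2 scale on either side, where the background shares are the 0.778% and 0.844% given above. That count depends on which genes were listed. The 8, which all pass this distance, were taken out of these lists. Metap1d, a mitochondrial methionine aminopeptidase that passed it too, was not listed. Of the 159, 32 lay above NC in all 4 libraries by any distance and 34 below it, where 20.1% and 22.4% of all genes do.

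In gene expression, Mrpl42 stood beside 68 other mitochondrial ribosomal protein genes with mean ratios from -0.56 (Mrpl54) to 0.31 and a median of -0.01. Mrpl43, another protein of the same subunit, had ratios of -0.80 and -0.18 for siDhx30, and of -0.62 and -0.10 for siTfam. Its replicates numbered 1 were thus lower than those numbered 2 for both siRNAs. Mrpl42 had the reverse order for both siRNAs, and Grsf1 had the same order as Mrpl43. Grsf1 stood beside 30 other genes of RNA granules and RNA processing, with means from -0.47 (Rpusd3) to 0.75 (Mrm1, a methyltransferase of mitochondrial rRNA) and a median of -0.03. Dhx30 itself, another granule protein and one of the siRNA targets, had ratios of -0.40 and -0.20 for siDhx30, and of 0.01 and 0.04 for siTfam. Fastkd2, another granule protein gene, had a mean of 0.11 with 1 library below NC. Lars2 stood beside 19 other mitochondrial synthetase genes with a median of 0.01. The synthetases next to it in distance were both below NC: Yars2 at -1.38 and -1.25 for siDhx30 with -1.29 and -0.98 for siTfam, and Cars2, the cysteinyl enzyme, at a mean of -0.66. Synthetase genes lay far from NC on opposite sides, in the same 4 libraries.

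Among the enzymes, Oxsm stood beside 5 other genes of mitochondrial fatty acid synthesis and lipoate, with means from -0.46 to 0.13. Ndufab1, the acyl carrier on which the chain grows, lay lowest, at -0.46. Mcat, which loads malonyl groups for Oxsm, had a mean of -0.34 and Mecr, which completes each round of the cycle, one of -0.09. Acsf2 stood beside 11 other acyl-CoA synthetase genes with means from -0.70 (Aacs) to 0.21, and its closest relative by name, Acsf3, had a mean of 0.10. Rdh13 stood beside 7 other retinol dehydrogenases and related reductases with means from -0.44 (Rdh12) to 0.80 (Dhrs7). Rdh5 is not among these 7, since it lacks a value in at least 1 library. All values of such genes lie above NC as turned here.

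In assembly and processing, Sdhaf4 stood beside 4 other complex II genes with means from -0.02 to 0.41. Sdha, the flavoprotein that Sdhaf4 handles, had ratios between 0.06 and 0.12 in all 4 libraries, and Sdhb a mean of 0.07. Sdhaf3, which serves the iron-sulphur subunit, had the next highest mean, 0.41, with siTfam replicate 2 at -0.03. Immp2l stood beside 15 other genes of mitochondrial proteases with means from -0.25 to 0.36, the highest being Xpnpep3, an aminopeptidase. Metap1d, a mitochondrial peptidase gene outside that list, noticed after its values were seen, had a mean of -1.35 and ratios between -1.52 and -1.16. Immp1l, the partner of Immp2l in the inner membrane peptidase, was not measured here.

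**Figure D3:**
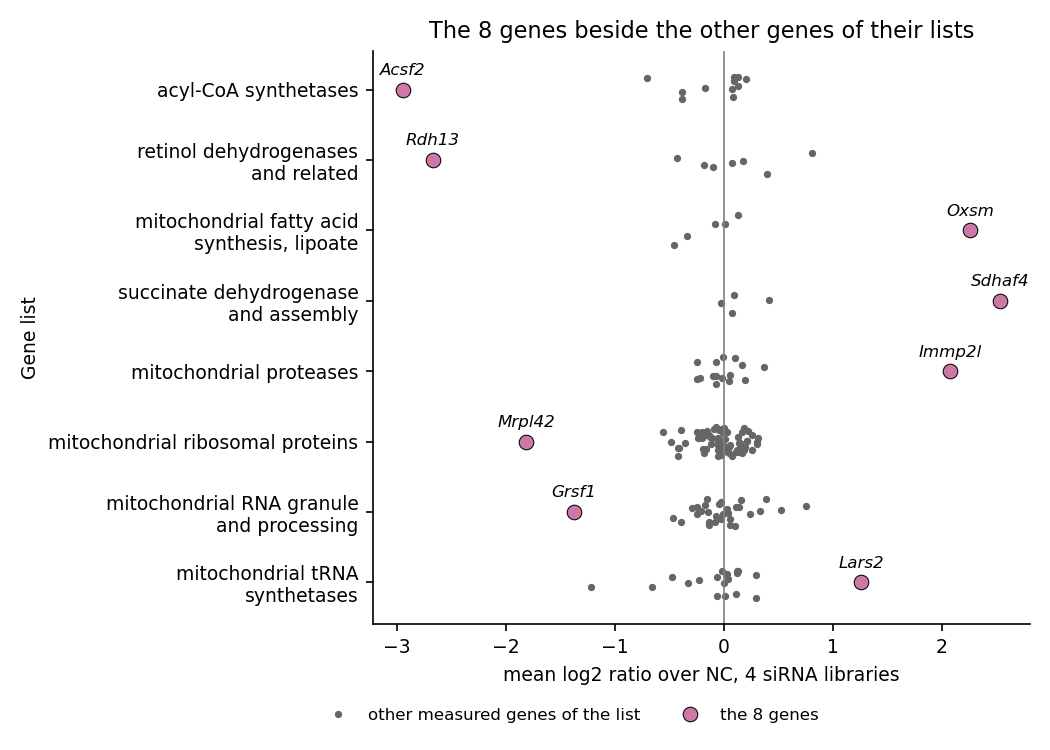
Mean log2 ratio over the 4 siRNA libraries (horizontal) for the 8 genes and, in grey, the other measured genes of the list each belongs to (1 row per list, vertical jitter only for legibility). Apart from Yars2 at -1.23, the grey points lie between -0.70 and 0.80.

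Whether the siRNAs differed from each other in these genes is a separate contrast, in which the NC library cancels. It is not independent of how the genes were chosen: the choice asked both siRNAs to lie far on the same side of NC, which favours genes where they are alike. A missing difference is therefore partly built in, and the sizes and intervals below are a description of these 4 libraries. The limma count over all genes was 0 of 12088 at an adjusted p of 0.05 (0%), with 337 genes, or 2.79%, at an unadjusted p under 0.05. None of the 8 was among those 337, and their limma adjusted p-values were all 0.999. For Acsf2, siDhx30 minus siTfam was -0.03 (SE 0.19), with a 95% interval from -0.55 to 0.49. It was 0.15 (SE 0.17; -0.33 to 0.63) for Rdh13 and -0.09 (SE 0.21; -0.67 to 0.49) for Mrpl42. For Grsf1 it was -0.20 (SE 0.24; -0.85 to 0.46). The signs of these 4 differences were mixed.

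Among the genes above NC, Immp2l differed by -0.04 (SE 0.17; -0.51 to 0.44) and Lars2 by -0.04 (SE 0.20; -0.61 to 0.52). Oxsm differed by 0.26 (SE 0.25; -0.43 to 0.96). Sdhaf4 had the largest difference, -0.58 (SE 0.39), and the widest interval, from -1.69 to 0.52. Without siTfam replicate 1 the Sdhaf4 difference was -0.07, and that of Oxsm was -0.0070. With 2 libraries a side, these intervals leave room for a siDhx30 level of Immp2l between 0.700 and 1.35 times that of siTfam, and for one of Sdhaf4 between 0.310 and 1.44 times. The siRNAs are thus not shown to act alike on these genes. Of the 159 other genes of the lists, limma called none at an adjusted p of 0.05, and 1, a synthetase gene, had an unadjusted p under 0.05.

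**Figure D4:**
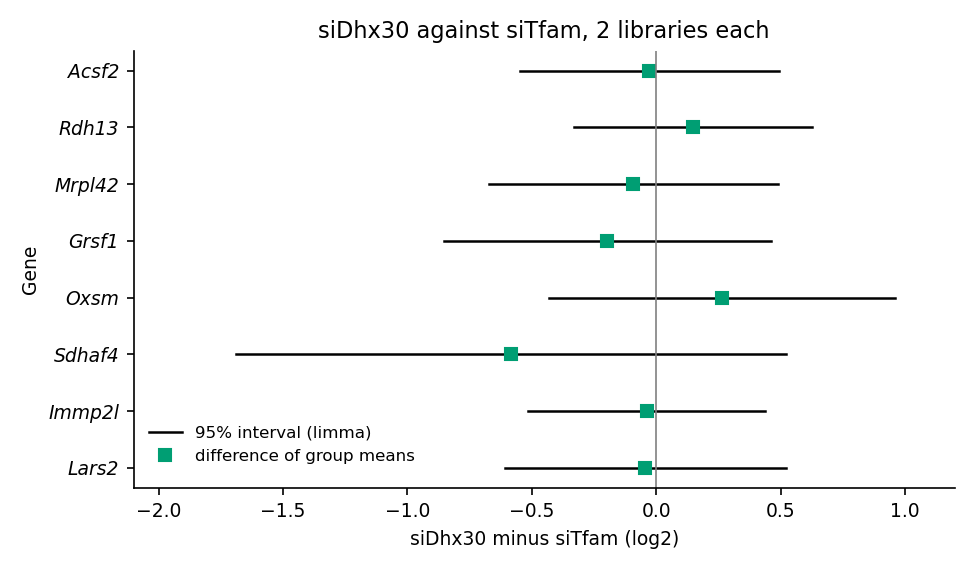
Difference of siDhx30 from siTfam (log2, horizontal) for each of the 8 genes, with 2 libraries per siRNA; squares are differences of group means and lines are limma 95% intervals. All 8 intervals include 0, and that of Sdhaf4 is the widest.

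Genes beside the 8 on their chromosomes were compared next, by position alone. The nearest measured coding genes on either side, with Ngly1 as the overlapping one, numbered 17. Their mean ratios ran from -0.57 to 0.57 with a median of -0.03, and none had all 4 libraries past 1 on either side. Ngly1, a cytosolic deglycosylase that starts opposite Oxsm, lay on the same side as Oxsm in every library, with 0.35 and 0.60 for siDhx30 and 0.58 and 0.75 for siTfam. Its order over the libraries differed from that of Oxsm, which was highest in siDhx30 replicate 1, where Ngly1 was lowest. Whether the overlap had a part in the ratios of either gene was not tested. Lrrc59, beside Acsf2, lay between -0.60 and -0.54, and Ube2n, beside Mrpl42, between -0.53 and -0.32, both on the side of their neighbour. Both neighbours of Rdh13, Leng8 and Ppp1r12c, lay below NC in all 4 libraries with means of -0.20 and -0.23. The measured neighbours of Grsf1, Immp2l and Sdhaf4 had values on both sides of 0. The neighbours of Lars2 had means of -0.18 (Cdcp1) and -0.01 (Limd1), against 1.26 for Lars2. In all, 7 of the 17 lay on one side of NC in all 4 libraries, where 20.1% of all genes do above NC and 22.4% below.

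**Figure D5:**
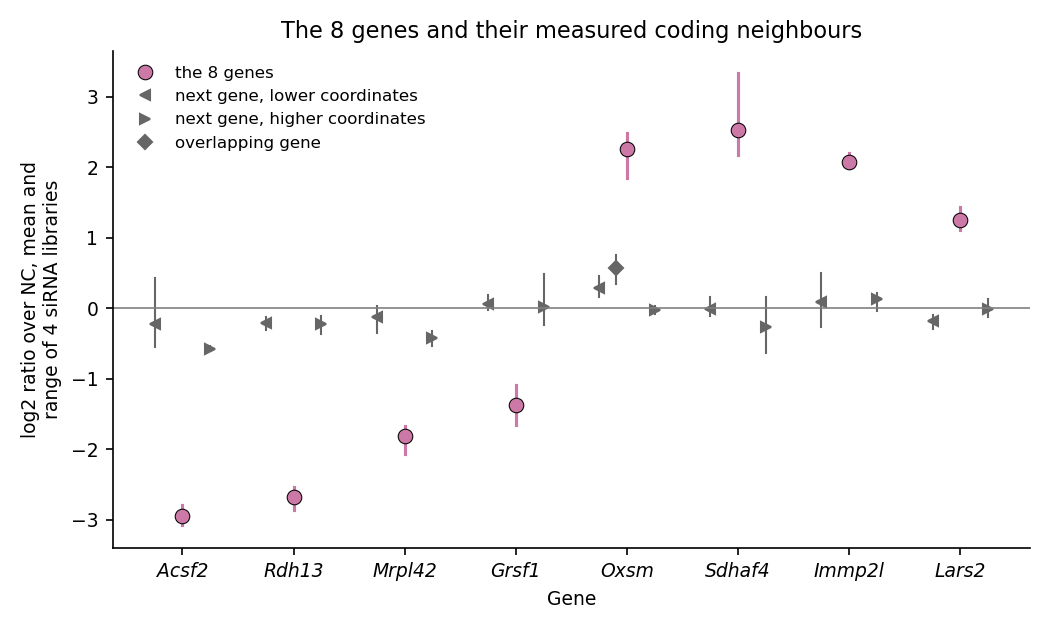
Log2 ratio over NC (vertical; symbol, mean; line, range of 4 siRNA libraries) of each of the 8 genes and of the next measured protein-coding genes along the chromosome. Neighbours lie between -0.57 and 0.57 in mean, with Ngly1, which overlaps Oxsm, the highest.

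The genes most like each of the 8 were taken by the Euclidean distance over the 4 log2 ratios, among all 12088 genes. Rdh13 was closest to Daam1, a formin of the actin cytoskeleton, at a distance of 0.24, and Acsf2 had Daam1 (0.60) and Rdh13 (0.62) as its closest. Mrpl42 was closest to Melk, a mitotic kinase (0.29), and to the DNA repair nuclease gene Fan1 (0.42). Grsf1 was closest to the pseudogene Gm7935 (0.33) and to Tsen54, a tRNA splicing subunit (0.35). Oxsm was closest to 6720468P15Rik (0.21), and both Oxsm and Immp2l had the zinc finger gene Zfp583 as second closest, at 0.57 and 0.45. Immp2l was closest to the antisense model Gm17035 (0.41), and Lars2 to the lincRNA Gm48488 (0.23) and the microRNA model Mir5116 (0.24). Sdhaf4 had no gene closer than Gm26670 at 0.89. Within a distance of 0.5 there were 20 genes of Lars2's pattern and 15 of that of Grsf1, but none for Acsf2 or Sdhaf4. With 4 values that share the NC library, this likeness is mostly one of distance from NC.

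Measurements of the libraries as a whole stood as follows. Library medians over all genes lay between -0.015 and -0.0057. In its own libraries, Tfam lay at -0.28 and -0.02 and Dhx30 at the values given above. A lower level of either target is not established, since NC is 1 library and the limma interval of siDhx30 minus siTfam ran from -0.77 to 0.12 around -0.33 (Dhx30) and from -0.29 to 0.69 around 0.20 (Tfam). Of 22 embryonic stem cell markers 10 were measured, among them Sall4, Esrrb and Dnmt3b, with library medians between -0.04 and 0.03. Pou5f1, Sox2 and Nanog were not measured here, and ratios do not show whether a marker is expressed. The 7 measured primitive endoderm markers had library medians between -0.39 and -0.02, and the 7 measured fibroblast markers between -0.12 and 0.20. The 3 of 9 neural markers measured had library medians between -0.67 and 0.03, and the 1 of 10 trophoblast markers lay between -0.18 and 0.46. Single markers lay below NC in all 4 libraries by more than these medians show. Among the endoderm markers, the basement membrane collagen Col4a2 had a mean of -1.28 (-2.21 to -0.79) and Dab2 one of -0.995 (-1.62 to -0.02). The fibrillar collagen Col5a2 had a mean of -0.93 (-1.76 to -0.12) and the neural marker Nes one of -0.96 (-1.93 to -0.50). Other markers of the same lists went the other way. By mean, 3 fibroblast markers lay above NC (Thy1 0.51, Vim 0.40, Fn1 0.14) and 4 below. Of the neural markers, 1 lay above (Map2, 0.35) and 2 below, and of the 7 measured endoderm markers 1 lay above (Lamc1, 0.06) and 6 below. Left out of these 7 are 2 endoderm markers, Gata6 and Srgn, that lack a value in at least 1 library. All values of such genes lie above NC as turned here. Gata6 had a value only in siDhx30 replicate 2, at 1.58. The 7 measured endoderm markers all had a higher mean in siDhx30 than in siTfam, by a median of 0.40. For them limma made no call at an adjusted p of 0.05 and put none at an unadjusted p under 0.05. No marker of these lists had all 4 libraries past 1 on one side. Their part in the ratios of the 8 genes was not tested. Gm15564, a ribosomal RNA-like gene, lay between 0.08 and 0.23.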

How the data were processed

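RNA-seq of 5 libraries was analysed: 2 siDhx30, 2 siTfam and 1 NC. DNase-treated total RNA was fragmented and copied into cDNA by template switching, per the labels' protocols. GRCm38 and the tools HISAT2, featureCounts, bcl2fastq and DESeq2 (version given as 3.14) are listed in the submitters' processing notes, without settings. The authors deposited log2 ratios, 1 column per siRNA library, per the file headers. All 4 columns were used.

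Signs were turned to siRNA over NC, as the report describes. siDhx30 was compared with siTfam by limma 3.58.1 in R 4.3.3 (group means, robust moderation, no trend, 2 residual degrees of freedom) over the 12088 complete genes, with Benjamini-Hochberg adjustment at 0.05. The fit was run on 5 simulated sets with 200 changed genes each, and its power to find changes is not reported here. Ratios to NC were not tested, since the genes were chosen on them. The genes and lists were chosen with earlier results of these data known. Named genes are the 8, the targets, fixed close relatives, list members past 1 on the log2 scale in all 4 libraries, overlapping genes and the 2 nearest patterns per gene. Flanking genes, near copies, promoters, Metap1d, Hoga1, Sdhb, the single markers named and list extremes were added after values were seen. Positions are from GENCODE M21, and 12660 of 12930 names matched it. Near copies were sought with blastn 2.17.0 (97% identity, 150 bases) and promoters came from RefSeq (GRCm38.p6). Tables were handled in pandas 2.3.3 under Python 3.11.15. Alternatives were another variance moderation, no filter, centring, a replicate block, other fold minimums and leaving out libraries.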

Additional observations from a re-analysis of the deposited data

How the results depend on the processing

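The limma count for siDhx30 against siTfam was 0 under every alternative run, including each library left out, and no difference of the 8 genes passed in any. Unadjusted counts ran from 279 (without siDhx30 replicate 2) to 921 (without siTfam replicate 1), against 337. With the replicate number as a block the count was 0, with 566 genes at an unadjusted p under 0.05, and the differences were the same by construction. Same-numbered libraries shared deviations across genes (Pearson r = 0.25 over 12088 genes), but only the number links them. Leaving out 1 library, where the lone library of a siRNA is assumed to vary like the other siRNA's pair, the difference ran from -0.17 to 0.12 for Acsf2, -0.29 to 0.11 for Mrpl42, -0.0070 to 0.53 for Oxsm, -0.15 to 0.072 for Immp2l and -0.20 to 0.12 for Lars2, so its direction is not settled. It ran from 0.03 to 0.27 for Rdh13, -0.38 to -0.0093 for Grsf1 and -1.09 to -0.07 for Sdhaf4. The direction from NC of the 8 genes could not change with centring, medians or a library left out, since the choice put all 4 libraries on one side, and says nothing of stability. Genes with all 4 libraries above NC numbered 320 at a minimum of 0.5 on the log2 scale and 13 at 2, against 94 at 1. Those below numbered 337 and 13 at the same minimums, against 102. Without the filter on missing values, 378 genes lay above NC by at least 1 in every value they had, with at least 2 values. With 1 library left out, the counts at 1 ran from 111 to 139 above NC and from 135 to 141 below it. The 842 genes with a missing value lay only above NC as turned here. Depth is unknown, so noise from few reads could not be set apart.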

Other observations

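Outside the lists, 2 further genes of mitochondrial proteins lay below NC by at least 1 on the log2 scale in all 4 siRNA libraries. Among all 12088 genes, 102, or 0.844%, did so. The 2 were picked by name after their values were seen, so they are not a count of such genes. Metap1d, a mitochondrial methionine aminopeptidase, had log2 ratios of -1.16 and -1.49 for siDhx30 replicates 1 and 2 and of -1.23 and -1.52 for those of siTfam. Hoga1, a mitochondrial aldolase of hydroxyproline breakdown, had ratios of -1.53 and -1.62 for siDhx30 and of -1.34 and -2.70 for siTfam. The siTfam replicates of Hoga1 thus spanned both its highest and its lowest value.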
